A study of Homo sapiens with 12 samples.

Results

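The 10 genes of the core circadian clock described here were *ARNTL*, *CLOCK*, *NPAS2*, *PER1*, *PER2*, *PER3*, *CRY1*, *CRY2*, *NR1D1* and *NR1D2*. They were picked by symbol, with earlier results of these data known, and stand among 56364 gene names found in at least 1 of 3 tables. All 10 were listed in each table, as were 15852 names in all. RNA had been sequenced from HCC70 and MDA-MB468, a pair of human triple-negative breast cancer (TNBC) lines. Every group was cells of 1 line collected after 24 h. In each line, 1 library came from vehicle, from XY018 (an antagonist of the nuclear receptor RORγ) at 1.25 µM, from XY018 at 2.5 µM, from the statin atorvastatin (ATV) at 1.25 µM, and from XY018 plus ATV at 1.25 µM each. A separate MDA-MB468 experiment held 1 vehicle library and 1 library of a second RORγ antagonist, GSK805, at 2.5 µM. The labels and the methods name different media for MDA-MB468, neither of them the one named for HCC70, so line and medium cannot be told apart. No step to synchronise the cells is described and 24 h was the only time point, so for a rhythmic gene a change of level and a change of phase cannot be told apart. The question put to these libraries here was which clock genes differed from vehicle under the antagonists and the statin.

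The clock is a feedback loop of transcription. ARNTL (BMAL1 in current nomenclature) pairs with CLOCK or its paralog NPAS2, binds E-box sequences and activates the *PER*, *CRY*, *NR1D1* and *NR1D2* genes. PER and CRY proteins enter the nucleus and inhibit the pair that induced them. In a second loop, the ROR receptors activate and the receptors NR1D1 and NR1D2 (REV-ERBα and REV-ERBβ) repress genes that carry a shared response element, the RORE. *ARNTL* is the best known of these, and *NPAS2*, *CRY1* and *NR1D1* itself are also described as RORE genes. *PER1* and *PER2* further respond to signalling through CREB and the glucocorticoid receptor, outside the loop.

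The authors gave expression as FPKM, the fragments of a gene scaled to transcript length and to the mapped fragments of the library, which allows levels of different genes to be ordered within a library. Fragment numbers were estimated from the spacing of low FPKM values, at 9400000 to 10370000 per HCC70 library, 18270000 to 20350000 in the MDA-MB468 experiment with XY018 and ATV, and 8380000 and 8660000 for the GSK805 pair. The intervals given below are at the 95% level, are built on these approximate depths and cover counting error only. With 1 library per condition none of the differences could be checked on replicates, and p-values are left out. All 5 epithelial markers examined reached 1 FPKM in every library. With XY018 at 2.5 µM in MDA-MB468, 2 of these 5 and 3 of 4 basal markers were lower by 1.5-fold or more. In HCC70 0 of 5 and 2 of 4 were. Of all genes at 1 FPKM or above in either library, 14.5% were lower in MDA-MB468 and 3.26% in HCC70. *KRT5*, a basal keratin, was at 112.44 FPKM in MDA-MB468 vehicle and 55.01 and 40.25 with XY018, and at 659.77 FPKM in HCC70 vehicle and 407.9 and 354.7 with XY018. *KRT8*, a luminal keratin, was at 917.75 FPKM in MDA-MB468 vehicle and 567.13 and 467.8 with XY018. The part of these markers in the clock gene values was not tested. *ESR1* lay between 0.37 and 0.67 FPKM in 10 libraries, but at 1.77 FPKM in the GSK805 vehicle and 5.67 FPKM after GSK805.

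Promoter windows of all 10 genes were found in RefSeq (GRCh38.p14), 15 windows in all, each of 250 bases before and 50 bases after a transcription start. They were searched on both strands for the response element half-sites TAGGTCA and TGGGTCA, the E-box CACGTG, the D-boxes TTATGTAA and TTACGTAA, and the cAMP response element TGACGTCA. These patterns do not contain one another. The 4 half-sites found are shown because they are the letters that ROR and NR1D receptors are known to share, each in a 28-base window on the strand of the gene, with the half-site or its reverse complement in capitals:
ARNTL, chr11:13277806-13277833, plus strand: gggaaggcagaaagTAGGTCAgggacgg
CRY2, chr11:45847396-45847423, plus strand: gagttgcggcgtcaTAGGTCActgggcg
CLOCK, chr4:55546136-55546163, minus strand: cccgctaggccttgTGACCCActttatt
NR1D2, chr3:23945974-23946001, plus strand: gccgctcggctcccTGACCCAcattccc

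The half-site began 31 bases into the transcript of *ARNTL* and 65, 217 and 133 bases before the start of *CRY2*, *CLOCK* and *NR1D2*. Of 35116 promoter windows in the table, 1.85% held TAGGTCA and 3.92% held TGGGTCA. A D-box lay in windows of *PER2*, *PER3* and *NR1D2*, against 1.01% of all windows, and TGACGTCA, held by 1.85% of all windows, was in none of the 15. CACGTG, held by 7.26% of all windows, was found in *NR1D2*, at 155 and 105 bases before the start, and in *PER1*. *NPAS2*, *CRY1* and *NR1D1* held none of the searched letters in these windows. The 250 bases before the start of *PER1* and *NR1D1*, the genes with the highest ratios to vehicle below, are printed so that these windows can be read, with CACGTG in capitals:
PER1, chr17:8152405-8152654, minus strand: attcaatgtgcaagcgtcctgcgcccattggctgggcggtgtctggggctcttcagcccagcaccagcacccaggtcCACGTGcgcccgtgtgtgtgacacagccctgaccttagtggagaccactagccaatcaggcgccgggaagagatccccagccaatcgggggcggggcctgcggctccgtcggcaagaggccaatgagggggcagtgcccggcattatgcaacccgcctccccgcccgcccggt
NR1D1, chr17:40100590-40100839, minus strand: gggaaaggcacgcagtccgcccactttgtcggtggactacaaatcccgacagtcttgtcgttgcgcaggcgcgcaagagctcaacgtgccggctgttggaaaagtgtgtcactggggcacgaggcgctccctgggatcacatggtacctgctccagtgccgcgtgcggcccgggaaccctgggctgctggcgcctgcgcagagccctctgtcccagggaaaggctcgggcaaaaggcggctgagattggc

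None of the 10 genes was below 1 FPKM in a vehicle library. In HCC70 vehicle, *NPAS2* was the most abundant, at 24.8 FPKM, ahead of *PER3* at 15.3 and *NR1D1* at 10.5 FPKM, and *PER1* was the least abundant, at 1.51 FPKM. The MDA-MB468 vehicle run beside XY018 and ATV spanned a narrower range, from *PER3* at 11.1 FPKM to *PER2* at 3.47 FPKM. Several neighbours in these orders lay close together, such as *CLOCK* at 5.48 and *ARNTL* at 5.45 FPKM in HCC70, and no spread over cultures is known for any of them.

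**Figure D1:**
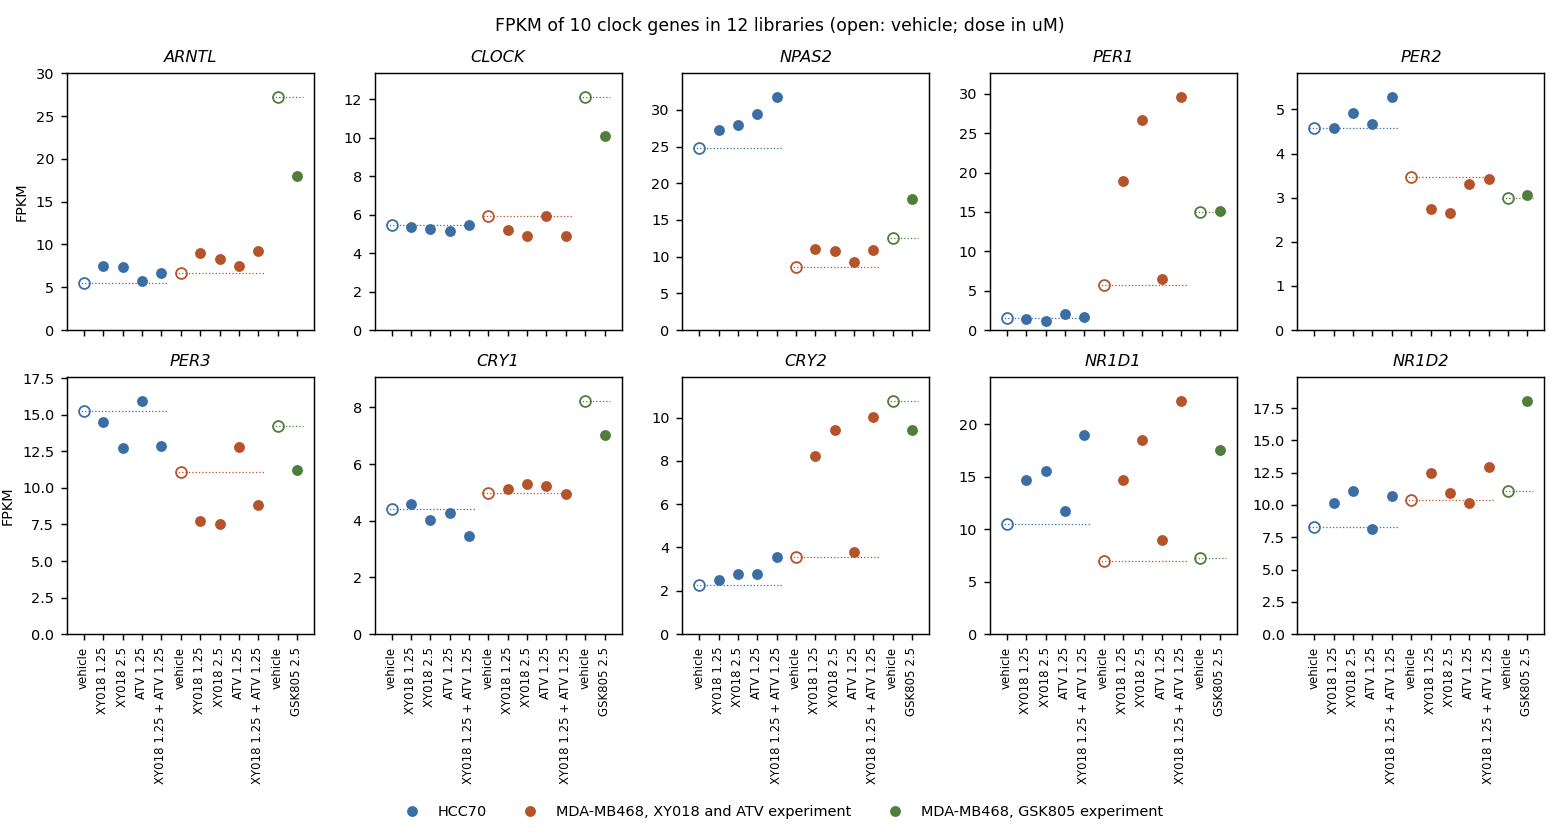
FPKM (y axis, from 0) of each clock gene in the 12 libraries (x axis, doses in µM), with open circles for vehicle and a dotted line at the vehicle level of the same table. *NR1D1* lies above its vehicle in every treated library, and *PER1* and *CRY2* stand more than 2-fold above vehicle only in the 3 MDA-MB468 libraries that received XY018.

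The vehicle of the GSK805 experiment had another order of FPKM. *ARNTL* led there at 27.3 FPKM, against 6.68 FPKM in the other MDA-MB468 vehicle. *PER1* was at 15.0 against 5.74 FPKM and *CRY2* at 10.8 against 3.56 FPKM, whereas *NR1D1* was at 7.30 against 6.94 FPKM. On the log2 scale the GSK805 vehicle was above the other by 2.01 for *ARNTL*, 1.57 for *CRY2* and 1.37 for *PER1*, while the median over 11952 genes was 0.56 with an SD of 1.14. The tables list different annotations and were normalized separately, and how much of each gap is technical was not tested. All ratios below are therefore to the vehicle within a table.

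Ratios are given as log2 of treated over vehicle FPKM with 0.1 added to both, which slightly understates the change of a gene at low FPKM, and a gene was counted as higher or lower when it differed by at least 1.5-fold. Genes at 1 FPKM or above in either library entered the count, and all 10 clock genes met this in all 9 comparisons. XY018 put *PER1*, *CRY2* and *NR1D1* higher in MDA-MB468 at both doses and together with ATV, 3 of 10 genes each time. At 1.25 µM, 9.73% of 11844 genes were higher and 8.38% lower, at 2.5 µM 14.1% of 11919 were higher and 14.5% lower, and with ATV added 13.1% of 11906 were higher and 12.2% lower. No clock gene was lower in these 3 comparisons.

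In HCC70, 0 of 10 clock genes passed 1.5-fold with XY018 alone. The share of all genes that did so was 1.93% higher and 2.64% lower at 1.25 µM, and 2.62% higher and 3.26% lower at 2.5 µM. With XY018 and ATV together, *NR1D1* and *CRY2* were higher, 2 of 10, and none was lower, beside 4.38% and 2.93% of 11792 genes. ATV alone moved no clock gene past 1.5-fold in either line, with 2.22% of all genes higher and 1.32% lower in HCC70 and 1.37% higher and 0.803% lower in MDA-MB468. After GSK805, *NR1D1* and *NR1D2* were higher and *ARNTL* was lower, beside 17.6% of 19951 genes higher and 16.6% lower. Among names in all 3 tables, the shares with GSK805 were 13.4% higher and 12.5% lower of 11964 genes. With so many genes past the threshold, 2 and 1 of 10 clock genes lie near the background of that comparison.

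The median log2 ratio of the 10 genes was between 0.07 and 0.24 in the 4 HCC70 comparisons and between 0.10 and 0.33 in the 4 of the MDA-MB468 experiment with XY018 and ATV, and it was −0.09 with GSK805. The median of all genes stayed between −0.02 and 0.01 throughout. *NR1D1* and *NPAS2* lay above vehicle in 9 of 9 comparisons. The interval included 0 for *NR1D1* with ATV in HCC70, at 0.16 (−0.08 to 0.40). It also did for *NPAS2* with ATV in MDA-MB468, at 0.12 (−0.03 to 0.27). Comparisons within a table share 1 vehicle, so their signs are not independent. The share of all genes above vehicle in all 9 was not counted. *CLOCK* was above vehicle in 1 of 9, by less than 0.01, and *PER3* in 2 of 9, both with ATV alone.

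**Figure D2:**
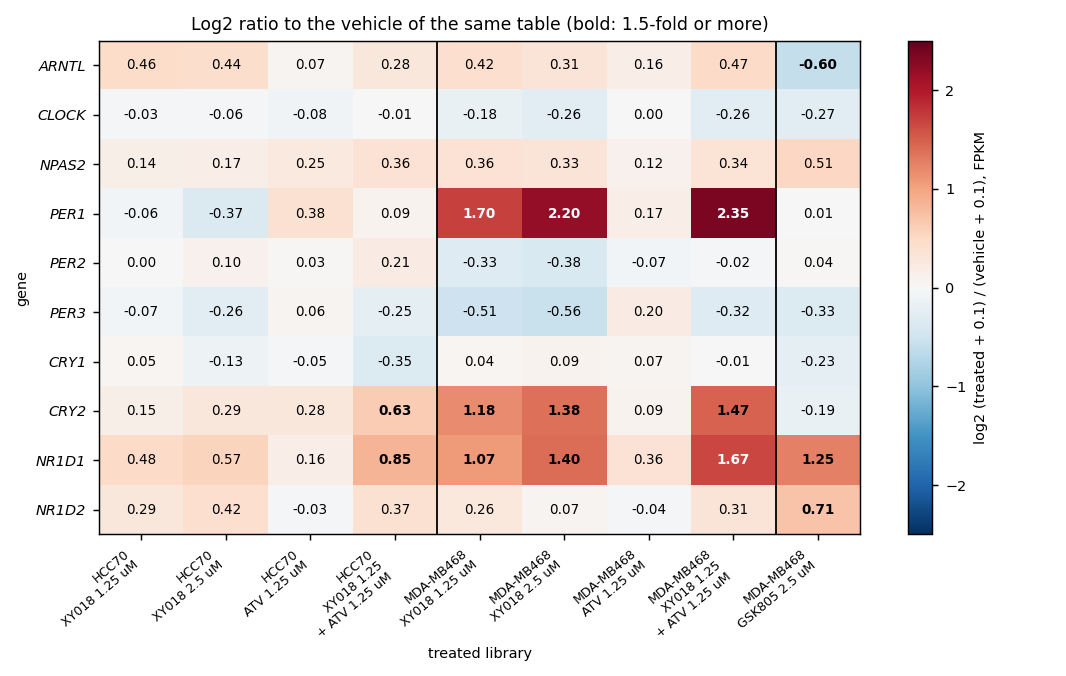
Log2 ratio over vehicle, with 0.1 FPKM added to both values, for each clock gene (rows) in each treated library (columns), coloured from blue (below vehicle) to red (above) and in bold at 1.5-fold or more. The bold values are those of *NR1D1* in 5 libraries, *CRY2* in 4, *PER1* in 3, *NR1D2* in 1 and, below vehicle, *ARNTL* after GSK805.

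Among the repressors of the second loop, *NR1D1* (chr17:38249046-38256842, minus strand, GRCh37) was above vehicle in both lines and with both antagonists. HCC70 cells had 10.5 FPKM in vehicle, 14.6 with XY018 at 1.25 µM, 15.6 at 2.5 µM, 11.8 with ATV and 18.9 with both compounds. In MDA-MB468 the value was 6.94 FPKM in vehicle, 14.7 and 18.5 with the lower and higher dose of XY018, 8.93 with ATV and 22.2 with both. GSK805 took it from 7.30 to 17.5 FPKM. Vehicle was the lowest library of each table, ATV alone was the next lowest in both lines, and the combination was the highest in both.

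The log2 ratio of *NR1D1* in HCC70 was 0.48 (interval 0.25 to 0.72) with XY018 at 1.25 µM and 0.57 (0.35 to 0.80) at 2.5 µM, the latter a 1.48-fold difference just short of the threshold. It reached 0.85 (0.64 to 1.07) with both compounds. In MDA-MB468 the ratios were 1.07 (0.90 to 1.27), 1.40 (1.24 to 1.60) and 1.67 (1.51 to 1.86), and GSK805 gave 1.25 (0.98 to 1.55). *NR1D1* ranked between 144 and 298 of all genes from the highest ratio in the 3 XY018 comparisons of MDA-MB468 and between 212 and 377 in those of HCC70. After GSK805, where more gene names were tested, it ranked 1395 of 19951.

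The 3′ end of *NR1D1* overlaps *THRA*, a thyroid hormone receptor gene on the opposite strand, by 1075 bp. The library kit is not stated to keep strand, so reads in that stretch cannot be assigned to either gene. *THRA* was at 15.6 FPKM in HCC70 vehicle and at 15.0 and 16.1 with XY018, a difference of at most 0.05 on the log2 scale. With both compounds, where *NR1D1* passed 1.5-fold, it was at 18.7 FPKM, a log2 ratio of 0.26 (0.12 to 0.39). In MDA-MB468, *THRA* was higher with XY018, from 8.83 to 13.4 and 15.4 FPKM, and with GSK805, from 10.965 to 17.9 FPKM. The part of shared reads in the *NR1D1* values was not tested.

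Its paralog *NR1D2* (chr3:23986777-24022108, plus strand) did not follow *NR1D1* in size. HCC70 had 8.26 FPKM in vehicle, 10.1 and 11.1 with rising XY018, 8.11 with ATV and 10.7 with both, and the log2 ratio at 2.5 µM was 0.42 (0.24 to 0.60). MDA-MB468 had 10.4 FPKM in vehicle, 12.4, 10.9, 10.1 and 12.9 in the same order, and its ratio at 2.5 µM was 0.07 (−0.06 to 0.19). With GSK805 it was at 18.1 against 11.04 FPKM, a log2 ratio of 0.71 (0.54 to 0.88) and the one case past 1.5-fold.

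*PER1* (chr17:8043790-8059824, minus strand), a period gene that also responds to signals outside the loop, gave the largest difference of any clock gene. MDA-MB468 cells had 5.74 FPKM in vehicle and 6.45 with ATV, against 18.9 and 26.7 with XY018 at 1.25 and 2.5 µM and 29.7 with both compounds. All 3 libraries with XY018 lay above the 2 without it, but they differ in treatment and are not replicates. The share of all genes that separate in this way was not counted. The folds were 3.26, 4.58 and 5.09, the log2 ratios 1.70 (1.58 to 1.86), 2.20 (2.08 to 2.35) and 2.35 (2.23 to 2.51), and *PER1* ranked 61, 55 and 49 from the highest among the genes tested.

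Neither HCC70 nor GSK805 showed this. HCC70 held little *PER1* RNA, at 1.51 FPKM in vehicle, 1.44 and 1.15 with XY018, 1.99 with ATV and 1.61 with both, and at an estimated 54 to 95 fragments per library each interval included 0. The widest reached from −0.94 to 0.14, at 2.5 µM. GSK805 in MDA-MB468 gave 15.1 FPKM against 15.0 in its vehicle, a log2 ratio of 0.01 (−0.16 to 0.18). That vehicle already stood above the other MDA-MB468 vehicle by 1.37 on the log2 scale, and whether the higher start bears on the missing difference was not tested.

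*PER2* and *PER3* lay below vehicle with XY018 in MDA-MB468, without passing 1.5-fold. *PER3* (chr1:7844351-7905237, plus strand) was at 11.1 FPKM in vehicle, 7.77 and 7.52 with XY018, 12.8 with ATV and 8.86 with both. Its log2 ratio of −0.56 (−0.69 to −0.44) at 2.5 µM was 1.47-fold below vehicle, just inside the threshold. HCC70 had 15.3 FPKM in vehicle, 14.5, 12.7, 16.0 and 12.8 in the same order, and GSK805 gave 11.3 against 14.2 FPKM. *PER3* was thus below vehicle in all 7 libraries that received an antagonist. In 6 of these the interval lay below 0, the exception being HCC70 with XY018 at 1.25 µM. Libraries within a table share 1 vehicle, so the 7 are not independent, and the share of all genes that behave this way was not counted.

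*PER2* (chr2:239152685-239198743, minus strand) stayed within 0.38 of vehicle on the log2 scale in every comparison. In MDA-MB468 it was at 3.47 FPKM in vehicle, 2.74 and 2.65 with XY018, 3.30 with ATV and 3.42 with both, with a ratio of −0.38 (−0.60 to −0.18) at 2.5 µM. In HCC70 the range was 4.57 to 5.29 FPKM with vehicle as the lowest value, and GSK805 gave 3.06 against 2.98 FPKM.

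The cryptochromes, the partners of PER in repression, also differed from each other. *CRY2* (chr11:45868669-45904799, plus strand) was at 3.56 FPKM in MDA-MB468 vehicle and 3.79 with ATV, against 8.22 and 9.43 with XY018 and 10.0 with both compounds. As with *PER1*, each library with XY018 lay above both without it, and the share of all genes that do so was not counted. The log2 ratios were 1.18 (1.00 to 1.41), 1.38 (1.20 to 1.60) and 1.47 (1.29 to 1.69). In HCC70 the values were 2.26 FPKM in vehicle, 2.51 and 2.78 with XY018, 2.76 with ATV and 3.55 with both.

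In HCC70, *CRY2* passed 1.5-fold in the combination only, at 0.63 (0.27 to 1.05). That comparison had a Spearman correlation of 0.31 between the log2 ratio and transcript GC content over 11545 genes, and after subtraction of the median of genes of like GC content (10 equal bins) the *CRY2* value was 0.58, below the threshold, while *NR1D1* kept 0.72. GSK805 gave 9.44 against 10.8 FPKM of *CRY2*, a ratio of −0.19 (−0.41 to 0.03). *CRY1* (chr12:107385142-107487327, minus strand) lay between 4.95 and 5.29 FPKM in the 5 libraries of the MDA-MB468 experiment with XY018 and ATV and between 3.46 and 4.58 FPKM in HCC70, and its interval included 0 in all 9 comparisons.

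*ARNTL* (chr11:13298199-13408813, plus strand), the gene best known for its RORE, was above vehicle with XY018. HCC70 had 5.45 FPKM in vehicle, 7.53 and 7.41 with XY018, 5.74 with ATV and 6.62 with both. MDA-MB468 had 6.68, 9.00 and 8.32, 7.49 and 9.29 FPKM in the same order. The log2 ratio at 2.5 µM was 0.44 (0.13 to 0.76) in HCC70 and 0.31 (0.11 to 0.52) in MDA-MB468, both short of 1.5-fold. GSK805 went the other way, from 27.3 to 18.0 FPKM, a ratio of −0.60 (−0.79 to −0.42) or 1.52-fold below vehicle. The treated value was still above every *ARNTL* value of the XY018 experiment, which lies in another table, and set against that vehicle the log2 ratio turned to 1.41. With a pseudocount of 1 it was no longer past 1.5-fold.

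*CLOCK* (chr4:56294070-56413076, minus strand) and *NPAS2* (chr2:101436601-101613291, plus strand), the alternative partners of ARNTL, did not pass 1.5-fold anywhere. *CLOCK* was between 5.17 and 5.48 FPKM in HCC70 and between 4.92 and 5.92 FPKM in the MDA-MB468 libraries of the XY018 and ATV set, where the ratio was −0.26 (−0.39 to −0.14) at 2.5 µM. GSK805 gave 10.1 against 12.1 FPKM and a nearly equal ratio of −0.27 (−0.40 to −0.14). *NPAS2* was above vehicle in every treated library, from 24.8 to between 27.3 and 31.8 FPKM in HCC70, from 8.59 to between 9.32 and 11.03 FPKM in MDA-MB468, and from 12.5 to 17.9 FPKM with GSK805, where its ratio of 0.51 (0.33 to 0.70) was the highest. Over whole gene spans, introns included, *CLOCK* overlaps *TMEM165* on the opposite strand by 25495 bp. *PER3* overlaps *UTS2* by 2095 bp and *NR1D2* overlaps *NKIRAS1* by 1306 bp. How much of these stretches lies in exons was not measured, and reads from any shared exons cannot be told apart either.

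**Figure D3:**
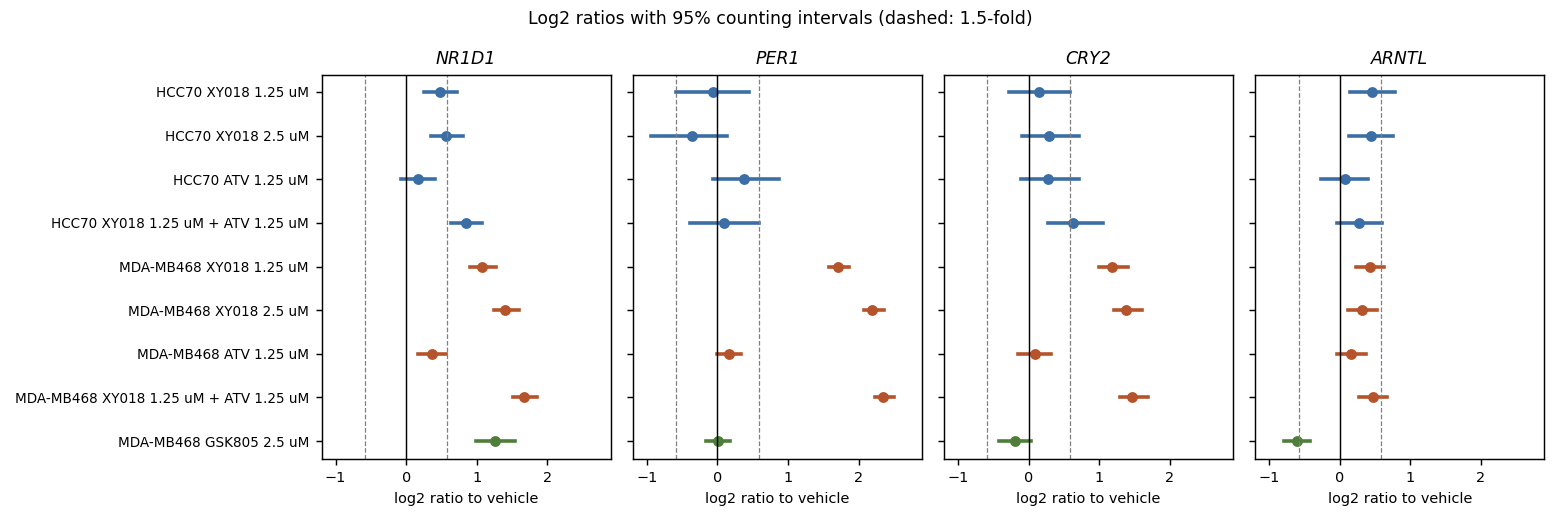
Log2 ratio to vehicle (x axis) with 95% counting intervals (bars) for 4 clock genes in the 9 treated libraries (y axis), with dashed lines at 1.5-fold. The points of *NR1D1* lie to the right of 0 throughout, although its bar for ATV in HCC70 includes 0. *PER1* and *CRY2* lie past the line at all MDA-MB468 points that include XY018, and *ARNTL* lies left of 0 with GSK805 alone.

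The step from 1.25 to 2.5 µM XY018 was compared within each table. In MDA-MB468 the higher dose was above the lower by 0.49 (0.40 to 0.59) on the log2 scale for *PER1*, by 0.33 (0.19 to 0.48) for *NR1D1* and by 0.20 (0.04 to 0.35) for *CRY2*, and it was below by −0.19 (−0.31 to −0.07) for *NR1D2*. The other 6 genes had intervals that included 0. In HCC70 *PER3* alone had an interval that did not, at −0.19 (−0.33 to −0.05), and the step of *NR1D1* was 0.09 (−0.12 to 0.30).

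The combination was also set against 1.25 µM XY018 alone, and the genes differed in direction. In MDA-MB468 the combination exceeded XY018 alone by 0.65 (0.56 to 0.74) for *PER1*, 0.59 (0.46 to 0.73) for *NR1D1* and 0.28 (0.13 to 0.43) for *CRY2*, and by 0.31 (0.11 to 0.53) for *PER2*. ATV by itself differed from vehicle by 0.17 (0.00 to 0.34) for *PER1*, 0.36 (0.16 to 0.57) for *NR1D1* and 0.09 (−0.15 to 0.32) for *CRY2*. In HCC70 the combination exceeded XY018 by 0.37 (0.17 to 0.57) for *NR1D1*, 0.48 (0.12 to 0.89) for *CRY2* and 0.22 (0.10 to 0.34) for *NPAS2*, but *CRY1* was lower than with XY018 alone, at −0.39 (−0.79 to −0.02), and the interval for *PER1*, at 0.15 (−0.33 to 0.68), included 0. *PER3* showed the reverse between lines, since ATV added to XY018 brought it 0.19 (0.06 to 0.32) up in MDA-MB468 and −0.18 (−0.32 to −0.04) down in HCC70.

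The 2 lines were set side by side at matched dose and time by the difference of their log2 ratios. At 2.5 µM XY018, MDA-MB468 exceeded HCC70 by 2.56 (2.03 to 3.09) for *PER1*, 1.09 (0.65 to 1.54) for *CRY2* and 0.84 (0.55 to 1.12) for *NR1D1*. It was below HCC70 by −0.48 (−0.79 to −0.17) for *PER2*, −0.35 (−0.57 to −0.13) for *NR1D2* and −0.29 (−0.48 to −0.11) for *PER3*. For *ARNTL* the difference was −0.12 (−0.49 to 0.24), and those of *CLOCK*, *NPAS2* and *CRY1* also had intervals that included 0. With ATV alone, the intervals of all 10 genes included 0. No clock gene passed 1.5-fold in opposite directions in the 2 lines.

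**Figure D4:**
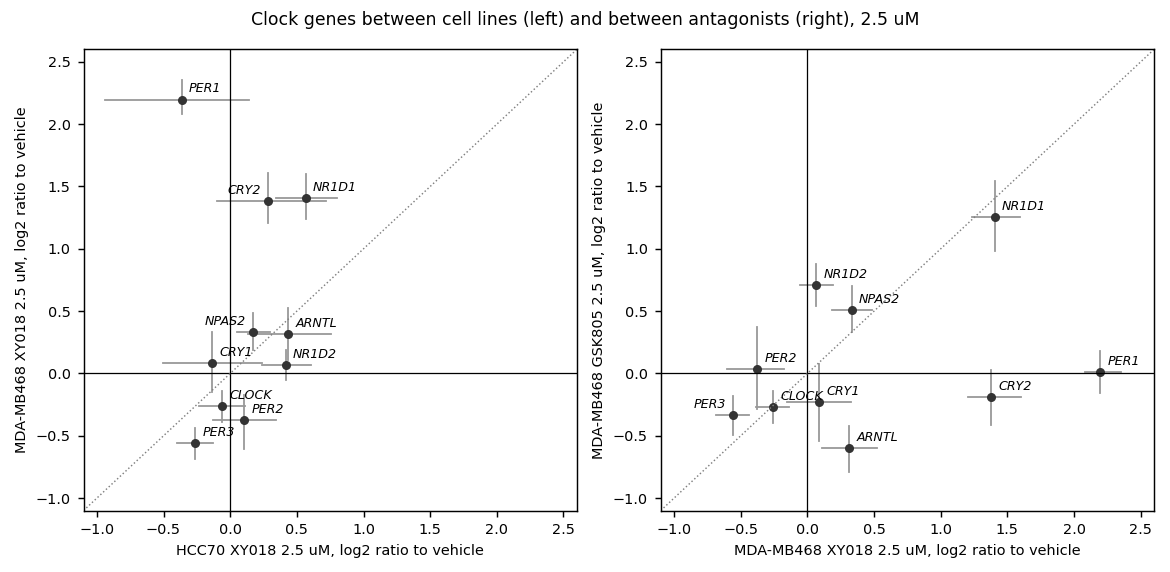
Log2 ratios to vehicle of the 10 clock genes at 2.5 µM, for XY018 in MDA-MB468 against XY018 in HCC70 (left) and for GSK805 against XY018 in MDA-MB468 (right), with 95% counting intervals as grey bars and a dotted line of equal values. *PER1* lies farthest from the dotted line in both panels, at 2.20 for XY018 in MDA-MB468 against −0.37 in HCC70 and 0.01 for GSK805.

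XY018 and GSK805 were matched in line, dose and time but not in experiment, so compound and experiment cannot be told apart. For *NR1D1* the GSK805 ratio differed from that of XY018 by −0.15 (−0.48 to 0.18), and for *CLOCK* by −0.01 (−0.19 to 0.17), *NPAS2* by 0.18 (−0.05 to 0.42) and *CRY1* by −0.31 (−0.69 to 0.07). An interval that includes 0 does not show that the compounds act alike. The ratio was lower with GSK805 by −2.18 (−2.40 to −1.97) for *PER1*, −1.57 (−1.86 to −1.28) for *CRY2* and −0.91 (−1.19 to −0.64) for *ARNTL*, and higher by 0.64 (0.43 to 0.84) for *NR1D2*, 0.41 (0.03 to 0.79) for *PER2* and 0.22 (0.02 to 0.42) for *PER3*. The genes with the widest gaps below, *PER1*, *CRY2* and *ARNTL*, were also those whose vehicle values differed most between the 2 experiments. Each gap contains both vehicle values, so part of this match is built in, and its cause was not tested.

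Clock output factors outside the 10 genes differed mostly in MDA-MB468. Among D-box factors, HLF reached 1 FPKM in the GSK805 vehicle only, at 1.22 FPKM, and was at 0.66 FPKM after GSK805. Of DBP, TEF and NFIL3, 2 of 3 were higher at each XY018 dose and with both compounds, and TEF was lower at 2.5 µM. Of all genes tested, 9.73% were higher and 8.38% lower at 1.25 µM, and 14.1% and 14.5% at 2.5 µM. With both compounds the shares were 13.1% and 12.2%. After GSK805, 1 of 4 D-box factors was higher and 1 was lower, beside 17.6% and 16.6% of all genes tested. *DBP*, a direct CLOCK and ARNTL target, was at 21.1 FPKM in vehicle, 38.2 and 42.9 with XY018, 25.01 with ATV and 44 with both. *NFIL3*, a repressor at D-boxes, was at 10.2 FPKM in vehicle, 17.0 and 20.5 with XY018, 11.1 with ATV and 23.9 with both, and at 23.2 against 12.4 FPKM with GSK805. In HCC70, 0 of 3 passed 1.5-fold in any comparison.

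The E-box repressor *BHLHE41* (DEC2) was higher with 2.5 µM XY018 and with both compounds in both lines. HCC70 had 16.5 FPKM in vehicle, 24.1 and 26.2 with XY018, 18.2 with ATV and 27.8 with both, while MDA-MB468 rose from 0.67 FPKM to 2.98, 4.04 and, with both, 4.25 FPKM, and GSK805 gave 4.49 against 2.22 FPKM. Its relative *BHLHE40* passed 1.5-fold in no comparison. Among clock-controlled outputs, *NAMPT*, the rate-limiting enzyme of NAD salvage, was at 44.3 FPKM in MDA-MB468 vehicle, 85.4 and 103 with XY018 and 108 with both, at 241 against 108 FPKM with GSK805, and between 77.6 and 87.0 FPKM in HCC70. *KLF10* was higher in the MDA-MB468 combination, at 22.6 against 13.5 FPKM, and with GSK805, at 23.7 against 12.3 FPKM. Of the clock kinases and ubiquitin ligases, 7 of 8 were expressed, and none passed 1.5-fold except 1 lower gene with GSK805.

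Other genes are known to share the outside inputs of *PER1*. Of 8 CREB immediate early genes, 2 were higher and 1 was lower at each XY018 dose in MDA-MB468. In HCC70 at 2.5 µM, 3 of 7 were higher and none lower. The shares over all genes tested at 2.5 µM were 14.1% higher and 14.5% lower in MDA-MB468, and 2.62% and 3.26% in HCC70. At 1.25 µM in MDA-MB468 they were 9.73% and 8.38%. The 2 higher with XY018 in MDA-MB468 were *DUSP1*, a phosphatase of MAP kinases, and *FOSB*, a FOS family factor. *DUSP1* was at 3.47 FPKM in vehicle and 7.88 and 9.77 with XY018. *FOSB* was at 0.79 FPKM in vehicle and 3.15 and 4.08 with XY018. *EGR1* was at 12.5 FPKM in MDA-MB468 vehicle, 8.12 and 5.17 with XY018, 12.5 with ATV and 4.94 with both, but in HCC70 it went from 3.24 FPKM to 5.51 and 8.61 with XY018, 6.75 with ATV and 15.4 with both. GSK805 gave 27.05 against 11.3 FPKM of *EGR1*. *FOS* was at 2.94 FPKM in MDA-MB468 vehicle and 2.79 and 2.48 with XY018, and at 9.82 FPKM in HCC70 vehicle and 13.9 and 17.8 with XY018. With GSK805 it was at 25.9 against 9.74 FPKM in MDA-MB468. In that comparison 2 of 8 of these genes were higher and none lower, beside 17.6% and 16.6% of all genes tested. *NR4A1* passed 1.5-fold in HCC70 only, at 2.61 FPKM with 2.5 µM XY018 and 3.47 with both against 1.64 in vehicle.

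Of 5 expressed glucocorticoid-induced genes, 1 was higher and 2 were lower at 2.5 µM XY018 in MDA-MB468, against the same 14.1% and 14.5% of all genes tested. *KLF9* was at 1.98 FPKM in vehicle, 3.96 and 4.72 with XY018 and 4.48 with both, whereas *ERRFI1* was at 53.9 FPKM in vehicle, 30.2 and 20.8 with XY018 and 21.4 with both. *TIPIN*, the partner of the clock protein paralog TIMELESS in DNA replication, was lower with ATV alone and with both compounds in HCC70, at 6.12 and 4.57 against 11.1 FPKM, and with both XY018 doses in MDA-MB468, at 2.75 and 2.71 against 4.65 FPKM.

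Markers of other cell types also moved in the MDA-MB468 libraries that carry the *PER1*, *CRY2* and *NR1D1* results. The summed level of 7 such markers was 10.4 FPKM in vehicle and 10.2 with ATV, against 21.2 to 25.8 FPKM with XY018, and it was 30.2 against 16.6 FPKM for GSK805, where 6 of them were listed. In each library 2 or 3 of them reached 1 FPKM. Among those at 1 FPKM or above in either MDA-MB468 library, 2 of 2 were higher with XY018 at 1.25 µM and 3 of 3 at 2.5 µM. With both compounds 2 of 2 were higher, as were 2 of 2 with GSK805. The shares of all genes higher were 9.73%, 14.1%, 13.1% and 17.6% in the same order. With XY018 at 2.5 µM in HCC70, 0 of 3 were higher, beside 2.62% of all genes. In HCC70 the sum lay between 82.4 and 105 FPKM. Most of it was *CD68*, at 4.42 FPKM in MDA-MB468 vehicle and 11.6 and 16.4 with XY018, and *COL1A1*, at 4.96 and 8.43 and 8.21 FPKM. *COL3A1* and *CD3E*, also on the list, were at 0.14 FPKM or below in every library. *PTPRC*, the pan-leukocyte marker, was at 0.60 FPKM in vehicle and 1.06 at 2.5 µM. Their part in the results was not tested.

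The genes whose 9 log2 ratios ran most like those of a clock gene were ranked by Pearson correlation among 6590 genes, as a description. The 9 ratios share 3 vehicles, and for *PER1* and *CRY2* the likeness mostly reflects the split between the 3 MDA-MB468 libraries with XY018 and the rest. *THAP3*, *SF3B2* and *TRMT112* were nearest to *PER1*, each with a coefficient of 0.99, but their highest log2 ratios were 0.93, 0.44 and 0.31, well below the 2.35 of *PER1*. *STX5*, *ZNF598* and *TOX4* were nearest to *CRY2*, each at 0.99, and *ITPRIP* (0.98), *TRIP4* (0.97) and *UHRF2* (0.97) were nearest to *NR1D1*.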

How the data were processed

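RNA-seq libraries had been made from HCC70 and MDA-MB468 cells with the Illumina Tru-Seq RNA kit. The authors mapped reads to GRCh37/hg19 and quantified genes in a BWA, Bowtie and Cufflinks workflow, as the methods and the submitters' processing notes state, and versions are not given in the sources used here. Each of the 3 deposited tables, of 16491, 18217 and 57909 rows, holds FPKM that the authors normalized within that table. Where a name was repeated, the entry with the highest mean was kept, which left 16489, 18215 and 55744 names. The headers name no unit.

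Log2 ratios with a pseudocount of 0.1 were taken against the vehicle of the same table, with a minimum of 1 FPKM in at least 1 library and a threshold of 1.5-fold, the fold the study used. No test was run, since each condition has 1 library and the tables of the lines were normalized separately. Fragments per gene were estimated from FPKM, transcript length (GENCODE 44 on GRCh37) and a depth read from the spacing of low values, with a length offset of 60 or 200 nt, and gave 95% Clopper-Pearson intervals. Estimates and fold counts were also run on simulated counts drawn at set depths and folds. Such counts hold counting error only, so they cannot check spread between cultures. Overlaps and positions use GENCODE, and promoters RefSeq.

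The 10 genes, the 8 further lists of clock pathway genes and the markers were chosen with earlier results of these data known. Values are named for every clock gene and for list genes at 5 FPKM or above in a vehicle and past 1.5-fold in at least 2 of 9 comparisons. Some list genes are not reported here. *TEF*, *HLF*, *DUSP1*, *FOSB*, *KRT5*, *KRT8*, *BHLHE40*, *CD68*, *COL1A1*, *COL3A1*, *CD3E* and *PTPRC* were named after their values were seen. The 3 genes most like *PER1*, *CRY2* and *NR1D1*, the clock genes with the widest range of ratios, were ranked among genes at 5 FPKM or above in all 12 libraries.

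Alternatives were pseudocounts of 1 and 0.01, no filter, a filter at 5 FPKM, rescaling to a median log2 ratio of 0, a 2-fold threshold, 0.5 times the depth, and GSK805 against the other MDA-MB468 vehicle. Subtraction of the median of genes of like GC content (10 equal bins) and restriction to names in all 3 tables were chosen after seeing the data. Computation was in Python 3.11.15, with pandas 2.3.3, numpy 2.4.6, matplotlib 3.10.9 and scipy 1.17.1.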

Additional observations from a re-analysis of the deposited data

Results flagged for a closer look

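In 4 cases every XY018 library of one line, the combination included, lay on one side of vehicle and every XY018 library of the other line, or the GSK805 library, lay on the opposite side. None of these differences was tested, and the values given are those at 2.5 µM. *ARNTL* was above vehicle with XY018, at a log2 ratio of 0.3125, and below it with GSK805, at −0.6007, in MDA-MB468. *CRY2* was at 1.3806 with XY018 and −0.1887 with GSK805 in the same line. *PER2* was at 0.1043 in HCC70 and −0.3765 in MDA-MB468 with XY018, and at 0.037 in MDA-MB468 with GSK805. For *CRY2*, *PER2* in HCC70 and *PER2* with GSK805 the counting interval of one side included 0. *PER2* met the rule through ratios near 0 as well. These were 0.003 (−0.24 to 0.25) in HCC70 with XY018 at 1.25 µM and −0.02 (−0.22 to 0.17) in MDA-MB468 with both compounds. In all 3 contrasts of XY018 with GSK805 the experiment differed along with the compound.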

How the results depend on the processing

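Of 370 recomputed log2 ratios of clock genes that the setting could change, 361 moved by less than the counting error. Counts of higher and lower genes were the same in 48 and 52 of 55 such recomputations each. A pseudocount of 0.01 and rescaling change genes at these levels little, and each left all 90 ratios the same, so the total is no broad check. Against the vehicle of the XY018 and ATV experiment, 6 GSK805 ratios moved, 1 was reversed and 3 stayed. Rescaling to a median of 0 brought 1 gene (*NR1D1*) past 1.5-fold with XY018 at 2.5 µM in HCC70. The HCC70 combination had 1 higher gene with a pseudocount of 1, a filter at 5 FPKM or the median of like GC content subtracted, and 0 at 2-fold. For GSK805 the lower gene, *ARNTL*, was lost with a pseudocount of 1 and at 2-fold (0 lower), 1 gene was higher at 2-fold, and against the vehicle of the XY018 and ATV experiment 7 were higher and 0 lower, with *ARNTL* reversed to 1.4131 and the median at 0.9213. That alternative crosses separately normalized tables and the cause was not tested. With 0.5 times the estimated depth, 87 of 90 intervals kept their side of 0, the exceptions being *NPAS2* with both XY018 doses and *ARNTL* at 2.5 µM, all in HCC70. The labels give no replicate numbers, and no paired fit was made.

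Depth limits *PER1* in HCC70, with an estimated 54 to 95 fragments per library, and single libraries limit every value.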
